A study of Glycine max with 8 samples.

Results

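A set of 74 soybean transcripts, out of 42748 measured, had no signal well above background in dry seed or in seed imbibed for 8 h. Their signal was well above background in every sample of seed imbibed for 16 h. The seeds were Glycine max of the cultivar Suzumaru, profiled whole on single-dye Agilent microarrays as dry seed (2 arrays) and after imbibition in the dark at 25 °C for 8 h (3 arrays) or 16 h (3 arrays). The labels restrict the 8 h sample to beans that had gained more than 0.06 g of water, and the 16 h sample to beans that had either germinated or gained more than 0.33 g. Before imbibition the seeds were soaked in 1% hypochlorous acid and washed. Time and this selection of beans go together at 8 h and at 16 h. Seeds of a stage were pooled and then divided into portions before milling, so the spread between arrays is that between portions of a pool. The labels give 3 portions a stage, and the remaining dry one was not analysed here. Each member is 1 array probe with a sequence accession of its own.

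The members were chosen by measured values from these same arrays. A probe qualified where the scanner software marked it as not well above background on both dry arrays and on all 3 arrays at 8 h, and as well above it on the 3 arrays at 16 h. Its mean value at 16 h also had to be at least -1.5, where a value is log2 of the processed signal minus the 75th percentile of the soybean probes on that array, so that 0 marks the 75th percentile. The difference between 16 h and the earlier stages is thus a condition of membership. It is described here, and fits to it are given only beside their shares over all probes.

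Imbibition is the uptake of water by a dry seed, and it restarts respiration, protein synthesis and repair before the radicle emerges. A mature seed carries stored messenger RNAs made while it developed on the mother plant, and new transcripts join and replace them as germination goes on. A transcript that is undetected in the dry seed and present later is therefore a candidate for new synthesis, although a rise from a level below the detection limit looks the same on an array. In whole seeds, more RNA per cell and more cells with the RNA cannot be told apart. The files pair the probes with clone names or sequence accessions and not with genes. Of these identifiers 0 could be matched among 59048 RefSeq gene entries (assembly Glycine_max_v4.0). The members are therefore described by their values, with single probes given by ID, and the tissue could not be checked against marker genes.

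Relative to the 75th percentile, the arrays differed in how dim a transcript could be and still be detected. These limits bear on every result below. Between 19559 and 26835 soybean probes were well above background on the 5 earlier arrays, and between 29413 and 31193 at 16 h. The lowest soybean probe that was well above background lay at -2.91 and -3.78 on dry replicates 1 and 2. It lay at -3.97, -4.32 and -2.81 on 8 h replicates 1, 2 and 3, and at -5.42, -5.49 and -4.92 on the 16 h arrays. In processed intensity that lowest probe read 27.8 and 15.4 on the dry arrays, and 13.5, 15.4 and 31.7 at 8 h. At 16 h it read 15.3, 16.6 and 15.2. The subtracted 75th percentile was 209 to 309 units on the earlier arrays and 461 to 749 at 16 h. The limits at 16 h were thus lower relative to the 75th percentile. In intensity they lay within the range of the earlier arrays. The 75th percentile itself stood higher against the E1A spike-in RNA (viral transcripts added in known amounts) at 16 h, at -4.30 to -3.76 log2, than on the earlier arrays, at -5.67 to -5.17. Fold changes below are relative to the 75th percentile unless the spike-ins are named.

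At 16 h the members were mostly moderate in level, with 3 far brighter than the rest. Their mean values at 16 h ran from -1.49 to 4.07 with a median of -1.0, and 66 of the 74 lay below the 75th percentile. Only 3 exceeded 1. The median member stood at -0.88, -0.55 and -1.34 on 16 h replicates 1, 2 and 3, against -4.84 and -5.77 on the dry arrays and -5.14, -4.74 and -4.82 on the 8 h arrays. In processed intensity units the median member read 355, 511 and 181 at 16 h, and between 3.89 and 11.6 on the earlier arrays. The earlier values were not well above background, and no fold change between the earlier stages is read from them.

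**Figure D1:**
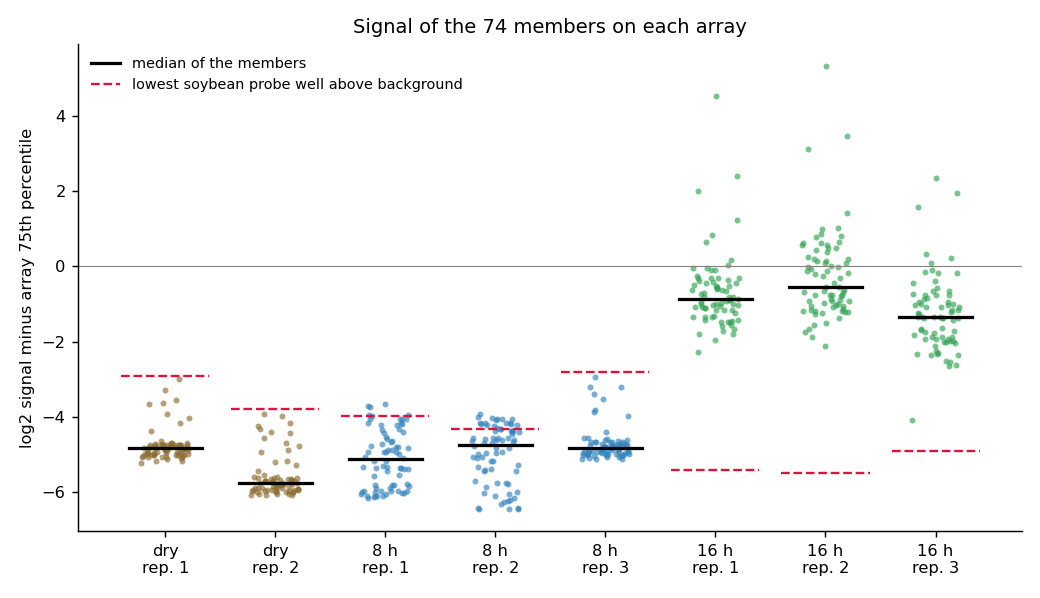
Each point is 1 of the 74 members on 1 array, as log2 signal minus the array's 75th percentile, with 2 dry arrays (brown), 3 at 8 h (blue) and 3 at 16 h (green). Black bars mark the median of the members and dashed red bars the lowest soybean probe well above background on that array; the 16 h medians lie at -0.88, -0.55 and -1.34, and the earlier medians between -5.77 and -4.74.

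All 74 members had every 16 h value above every dry and 8 h value, with a gap of 0.56 to the nearest earlier value in the closest case and of 2.66 log2 in the median case. Over all tested probes, such separation was found in 31.6%. Since detection chose the members, nothing is read from this count.

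The brightest member, probe GMFL01-26-K18-R_524, gave processed intensities of 6.64 and 3.73 on the dry arrays, of 6.86, 12.5 and 7.99 on the 8 h arrays, and of 15172, 29961 and 2344 at 16 h. All 3 portions at 16 h were far above the other 5 arrays, and the third 16 h portion was the lowest of them. Its mean value at 16 h was 4.07 ± 1.54 log2 (SD, n = 3). Because its earlier signals were not well above background, only a lower bound on the change can be given. A bound sets the mean at 16 h against, on each earlier array, the higher of the probe's own signal and the lowest signal of any soybean probe that was well above background. By this measure GMFL01-26-K18-R_524 rose at least 171-fold over dry seed and at least 218-fold over 8 h.

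The next member by this measure, GMFL01-09-J17-R_607, read 8.08 and 3.90 intensity units on the dry arrays, 3.81, 4.84 and 8.24 at 8 h, and 3466, 8257 and 1785 at 16 h. The groups were far apart again, and the order of the 16 h arrays was the same as for the brightest member. Its mean value at 16 h was 2.61 ± 0.77 log2 (SD, n = 3), at least 62.0-fold above dry seed and at least 79.3-fold above 8 h. The third member, GMFL01-14-B20-R_640, is named because it stands with the first pair, a choice made after its values were seen. It read 6.60 and 11.2 in dry seed, 2.95, 7.61 and 7.16 at 8 h, and 2604, 6513 and 1365 at 16 h. Its bounds were at least 47.6-fold over dry seed and at least 60.9-fold over 8 h.

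A clear step separated these 3 from the other members. The fourth member had bounds of at least 18.0-fold over dry seed and 22.4-fold over 8 h, and 3 of the 74 exceeded 32-fold against either stage. Over all 74 the bound against dry seed ran from 3.61-fold to 171-fold with a median of at least 5.09-fold, and the bound against 8 h from 4.39-fold to 218-fold with a median of at least 6.50-fold. A bound of at least 8-fold over dry seed held for 14 of the 74. Among the 5760 probes that every 16 h array and no dry array detected, 5.45% had such a bound. A bound of at least 8-fold over 8 h held for 22 of the 74, against 0.887% of the 2481 probes detected on all 16 h arrays and on none at 8 h, and these 22 members were all of them. The cut on the 16 h level fixes much of these shares. Centred on the spike-ins, the median bounds became at least 13.9-fold over dry seed and at least 17.4-fold over 8 h, and all 74 members exceeded 8-fold against both.

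**Figure D2:**
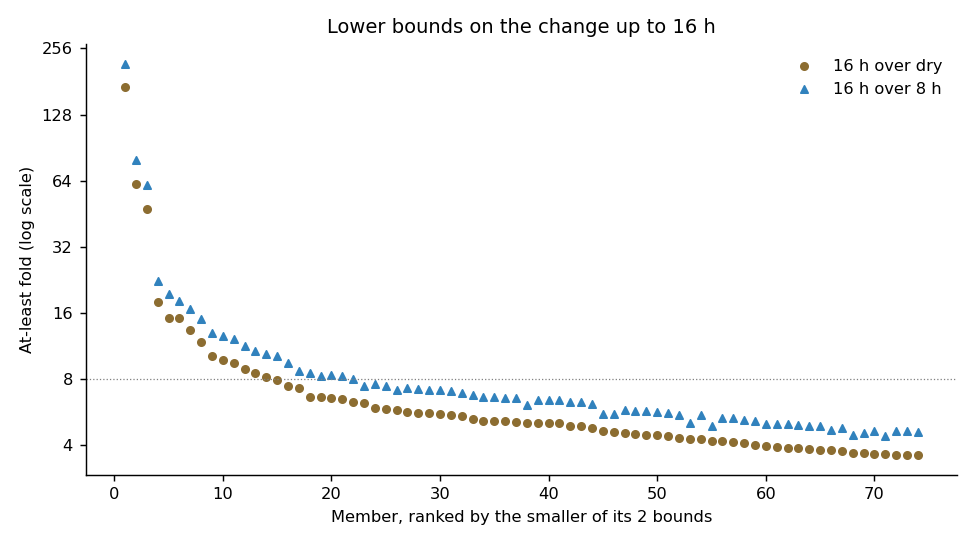
Lower bounds on the fold change of each of the 74 members, on a log axis, for 16 h over dry seed (brown circles) and over 8 h (blue triangles), ranked by the smaller of the pair. The first 3 members lie above 47-fold against both stages, and the medians are 5.09-fold and 6.50-fold.

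For the fit across probes, limma called all 74 members raised at 16 h against both dry seed and 8 h, at a Benjamini-Hochberg adjusted p under 0.05. Over all 28792 tested probes it called 30.8% and 29.2% higher. The rule used both contrasts, so the calls add nothing to it. With normexp background correction 12 and 8 of the 74 were called, against 7.35% and 6.29% of all tested probes. That correction put all 74 members between -0.23 and -0.18 on 8 h replicate 3, while their medians on the other earlier arrays lay between -2.19 and -1.82. A fit within slide 2 takes its spread from the 2 arrays at 8 h alone, where the rule required the members to be undetected. It holds no spread among dry or 16 h arrays, and the rule fixed both contrasts. Nothing is therefore read from its p-values for the members, adjusted or not. Within slide 2, which holds 1 dry array, 2 arrays at 8 h and 1 at 16 h, 0% of all tested probes were called higher after adjustment, so the absence of calls among the members says nothing about them. At an unadjusted limma p under 0.05 there, 73 of the 74 were higher in each contrast, against 17.5% of all tested probes over dry seed and 12.8% over 8 h.

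Between dry seed and 8 h limma called none of the 74 members, against 0.74% of all tested probes, and 8 of the 74 were higher at an unadjusted p under 0.05, against 8% of all. The rule required the members to be undetected at both stages, so nothing is read from these counts. Weaker signals were nevertheless more common on 2 of the 3 arrays at 8 h than in dry seed, among the members and over all soybean probes. The scanner software also marks spots whose signal is positive and significant against their local background, a weaker criterion than being well above it. By that criterion 53 and 63 of the 74 members gave a signal on 8 h replicates 1 and 2, and 9 on replicate 3, against 11 and 19 on dry replicates 1 and 2. On 8 h replicates 1 and 2 these are 71.6% and 85.1% of the members. Over all 42748 soybean probes the criterion marked 28574 and 32424 on dry replicates 1 and 2. At 8 h it marked 34947, 35696 and 26660 of them on replicates 1, 2 and 3. Among 9128 probes that no array of the study detected, the same criterion marked 40.4% and 41.2% on those arrays, 7.99% on 8 h replicate 3, and 15.3% and 29.5% on the dry arrays. The 2278 probes that share the members' detection pattern but were dimmer at 16 h gave 69.1% and 84.3% on 8 h replicates 1 and 2. Of the 74 members, 3 gave no such signal on any of the 5 earlier arrays, and 41 gave one on 8 h replicates 1 and 2 and not on replicate 3. Replicate 3 had the highest detection limit of the 8 h arrays and the fewest detected probes (19559), and its part in the difference was not tested.

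**Figure D3:**
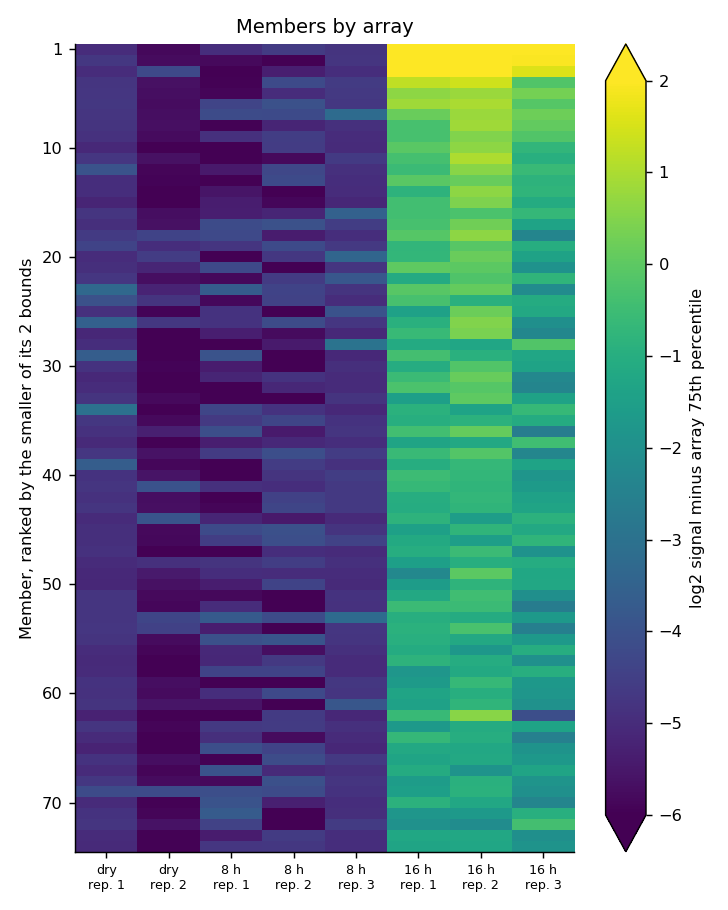
The 74 members (rows, ranked by the smaller of their 2 bounds) on the 8 arrays (columns), coloured by log2 signal minus the array's 75th percentile from -6 to 2, with values beyond these limits in the end colours. The 3 arrays at 16 h are lighter than all others in every row, and 16 h replicate 2 holds the highest value in 52 of the 74.

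Few transcripts of this brightness stayed short of well above background on every earlier array. The 3 arrays at 16 h all detected 17125 probes that also met the cut on the mean value, and 15303 of these (89.4%) were detected on all 5 earlier arrays. The 74 members make up 0.432%. The share with the members' detection pattern fell with the level reached at 16 h. It was 42.0% of 1865 probes with means under -4 and 12.3% of 1965 from -3 to -2.5. It was 6.73% of 2021 from -2.5 to -2, 3.87% of 1990 from -2 to -1.5, and 1.75% of 2115 from -1.5 to -1. Further up it was 0.665% of 4362 from -1 to 0, 0.129% of 3871 from 0 to 1, and 0.0443% of 6773 from 1 upwards. Detection limits were -4.32 to -2.81 on the earlier arrays and -5.49 to -4.92 at 16 h. A dim probe of unchanged level could therefore show this pattern, and the part of the limits in the fall was not tested. The 5 members just inside the cut had mean 16 h values from -1.49 to -1.48 and bounds of at least 3.61-fold to 3.65-fold over dry seed. The 5 probes just outside had means from -1.58 to -1.51 and bounds from 3.40-fold to 3.56-fold.

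The size of the class rested on 1 array at 8 h. Another 218 probes met the cut at 16 h and were well above background on exactly 1 of the 5 earlier arrays. That array was 8 h replicate 2 for 202 of them, 8 h replicate 1 for 11, 8 h replicate 3 for 3, and each dry array for 1. Of all soybean probes, 62.8% were detected on 8 h replicate 2, 59.3% on replicate 1 and 45.8% on replicate 3. On dry replicates 1 and 2 the shares were 47.2% and 54.7%. The 202 had a median value of -3.11 on 8 h replicate 2 and of -0.99 at 16 h. Without 8 h replicate 2 the rule found 276 members in place of 74. Leaving out any other array gave between 58 and 109. The pattern recurred among the larger changes. Of the 314 probes at least 8-fold above dry seed by the bound, 14 were members. These were the only ones that no 8 h array detected, so the other 300 were by construction detected at 8 h. Of the 300, 296 were detected on 8 h replicate 2. This array had the most detected probes of the earlier stages (26835), and its 75th percentile was the highest of the 8 h arrays against the spike-ins, at -5.17 log2 against -5.64 and -5.67. The part of these differences in the count was not tested.

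**Figure D4:**
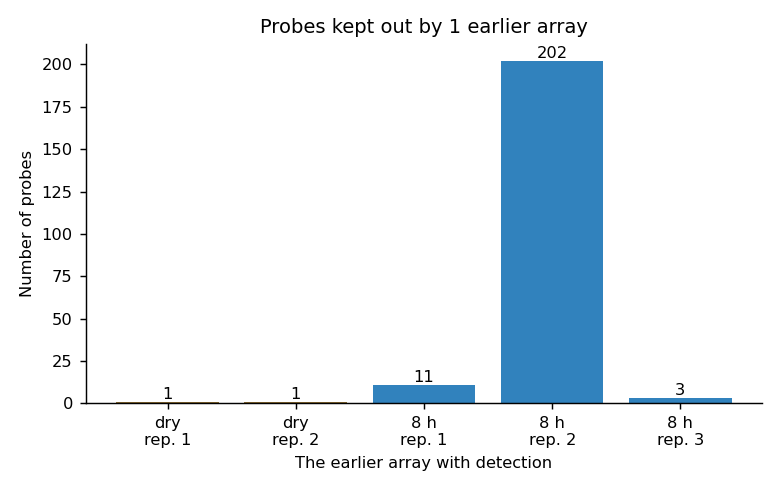
Number of probes that met the cut at 16 h and were well above background on exactly 1 earlier array, by that array (bars, from 0; brown for dry seed, blue for 8 h). The count is 202 for 8 h replicate 2 and at most 11 for any other array.

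Each slide carried all 3 stages, so the rule could be applied to 1 slide and its list examined on the arrays of the other. Slide 1 (dry replicate 1, 8 h replicate 1, 16 h replicates 1 and 2) gave 359 probes, and slide 2 (dry replicate 2, 8 h replicates 2 and 3, 16 h replicate 3) gave 70. They shared 42, which is 11.7% of the first list and 60% of the second. All 359 probes of the slide 1 list were well above background on the 16 h array of slide 2, where 68.8% of soybean probes were. The lowest probe detected on that array lay at -4.92, and the list had been cut at a mean of -1.5 on slide 1. Of the 359, 20 (5.57%) were detected on dry replicate 2, 7 (1.95%) on 8 h replicate 3 and 245 (68.2%) on 8 h replicate 2, where 54.7%, 45.8% and 62.8% of all soybean probes were. Of the 70 probes of the slide 2 list, 66 and 67 were detected on the 16 h arrays of slide 1, 12 on its 8 h array and 0 on its dry array, where 73.0%, 72.8%, 59.3% and 47.2% of all soybean probes were. Detection of the slide 1 list was thus below that of all probes on 8 h replicate 3 and above it on 8 h replicate 2. Nothing is read from the detection of either list at 16 h, since the level cut was applied at 16 h. Both slides hold portions of the same pools, and each list was picked as undetected on the earlier arrays of its own slide. The shares on the earlier arrays of the other slide are thus not free of the selection. No share was tested.

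The members varied widely among the 3 portions at 16 h. The rule set a minimum for their mean at 16 h and required their detection there, but it did not set the order of the arrays. A probe could meet that minimum through 1 high array, so the spread is not free of the selection. The median SD over the 16 h arrays was 0.59 log2 among the members, against 0.19 over all 28661 probes detected on those arrays and 0.17 over those in the members' range of means. Only 2 of the 74 (2.70%) had an SD under 0.2, against 52.9% of the 28661. The highest and lowest 16 h array differed by more than 1 log2 unit, a 2-fold change, for 41 of the members (55.4%) and for 6.62% of the 28661. The 2278 dimmer probes of the same detection pattern lay between, with a median SD of 0.32 and 20.1% over 1 log2 unit. So did 214 probes that every array detected and that were at least 4-fold higher at 16 h than at 8 h, with 0.27 and 14.5%.

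The order of the portions was shared among the members. Replicate 2 was above replicate 3 for 64 of the 74 (86.5%), against 47.7% of the 28661 probes. The median difference between these arrays was 0.97 log2, or 1.96-fold, among the members and -0.02 over the 28661. Replicate 2 was the highest of the 3 arrays for 52 members, and replicate 3 the lowest for 52. The dimmer probes of the same detection pattern leaned the same way by less, with replicate 2 above replicate 3 in 58.1% and a median difference of 0.13. So did 214 probes detected on all 8 arrays and at least 4-fold higher at 16 h than at 8 h, with 79.4% and 0.34, where all 18483 probes detected on every array gave 44.7% and -0.04. Probes of an array are not independent replicates, and no test was made of these shares.

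The order of the portions also differed in size between members. In the 37 members with the larger bounds the median difference between replicates 2 and 3 was 1.37 log2, and in the other 37 it was 0.75. The bounds rest on the mean at 16 h, which includes both replicates, so this split is not independent of the difference. The widest case, GMFL01-33-D11-R_229, was picked for its spread after its values were seen. It stood at -0.62, 0.57 and -4.09 on 16 h replicates 1, 2 and 3, a 25.4-fold span, so that its mean of -1.38 describes none of the portions. The most even member, BU545081.1_401, picked in the same way, stood at -0.98, -0.87 and -1.07. Among the 10 members in which replicate 3 was above replicate 2, the largest difference was 1.73 log2.

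Against the spike-ins the 75th percentile at 16 h ran in the same order, at -4.15, -3.76 and -4.30 on replicates 1, 2 and 3. Replicates 1 and 2 were on slide 1 and replicate 3 on slide 2, and replicate 3 had the fewest detected probes (29413 against 31193 and 31137). Relative to the spike-ins the median difference between replicates 2 and 3 was 1.51 log2 among the members and 0.52 over the 28661 probes. The gap of 0.99 between these medians is by construction the same as on the scale of the 75th percentile. A cut applied to the lowest 16 h array in place of the mean, chosen after seeing the data, left 34 members, of which 31 had replicate 2 above replicate 3 by a median of 0.85. Replicate 3 was the only 16 h array on slide 2, so slide and portion cannot be told apart in its difference from replicate 2. The part of signal strength was not tested.

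**Figure D5:**
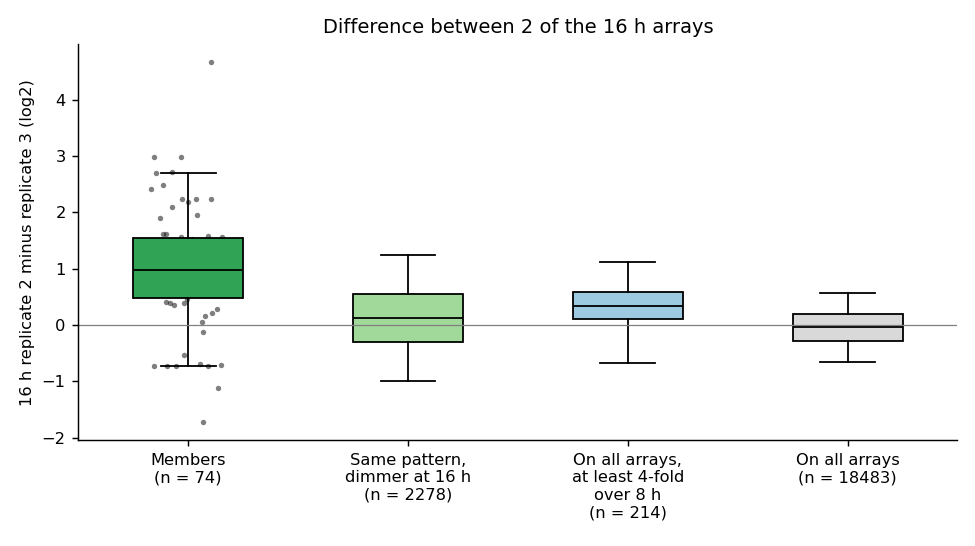
Difference between 16 h replicates 2 and 3 (log2) for the 74 members, the 2278 dimmer probes of the same detection pattern, the 214 probes detected on all arrays and at least 4-fold above 8 h, and all 18483 probes detected on every array. Boxes span the quartiles with the median as a line, whiskers the 5th to 95th percentiles, and points are the members; the medians are 0.97, 0.13, 0.34 and -0.04.

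The identifiers of the members leaned towards 1 clone collection. Names that begin with GMFL, a series of clone names, belonged to 28 of the 74 members (37.8%), against 21.9% of all soybean probes and 18.7% of the 2278 dimmer probes of the same detection pattern. They made up 6 of the 10 members with the largest bounds, among them the first 4. Of the 28 GMFL names 24 carried the ending R and 4 the ending F, where 83.0% of all GMFL probes on the array carried R. The other 46 members were named by sequence accession. All 74 had different accessions, so no accession was measured through more than 1 member, and whether several members read the same gene could not be seen from these names.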

How the data were processed

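Per the file headers, the authors' scanner files come from Agilent Feature Extraction 10.7.3.1 in 1 colour; each processed signal is an intensity that the software corrected for background and spatial trend, array by array and without scaling between arrays. The deposited value table holds log2 values; it matches the values computed here apart from an offset of -0.0027 to -0.00084, with column medians between -3.10 and -2.52. Labelling started from 200 ng of RNA, per the labels' protocols. Groups and replicate numbers come from the sample titles, and slides from the array barcodes.

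Values are log2 processed signal minus the 75th percentile over 42748 soybean probes; 1417 control spots were left out, no spot was saturated, and outlier spots (0 to 4 per array, none of a member) were left out of fits. One model over all 8 arrays was fitted with limma 3.58.1 in R 4.3.3 to the 28792 probes detected throughout at least 1 stage. It used 2-sided tests and Benjamini-Hochberg adjustment. A run on simulated data held independent normal noise and no detection limits or slide differences, so it does not bear on those. Other values used Python 3.11.15. Spike-in centring used 7 of 10 E1A probes, those well above background and unsaturated throughout; alternative scales were set so that the 75th percentiles at 16 h average 0. Normexp (offset 50) used the median spot and background intensity, per the file headers, since the planned mean spot signal is not used here.

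The members, tests and alternatives were chosen with earlier results of these data known. The naming rule took members with a gene or product name by the smaller of the 2 bounds; without names it gave the 2 probes with the largest bounds, and further probes are said to be chosen later. The planned gene lists by product name were not run for want of names. P-values measure the spread among these arrays, which may be technical; few arrays limit the precision.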

Additional observations from a re-analysis of the deposited data

How the results depend on the processing

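The size of the class follows the level cut, with 37 members at a cut of -1.0, 151 at -2.0 and 2352 with no cut, where the median bounds were 0.776-fold over dry seed and 0.984-fold over 8 h. With the local-background criterion in place of the stricter one 3 members were left, all 3 at least 8-fold above both stages, with median bounds of 16.7-fold and 21.4-fold. The cut on the lowest 16 h array, added after seeing the data, left 34 members, 31 of them with replicate 2 above replicate 3. The count with a bound of at least 8-fold over dry seed was 8 with median centring, 25 with a 75th percentile over only the probes that every array detected and 74 with spike-in centring; over 8 h the last pair of settings gave 40 and 74. Spike-in centring put the median bounds at 13.9-fold and 17.4-fold. Within slide 1 the class held 359 members, 40 and 165 of them at least 8-fold above dry seed and 8 h, and within slide 2 it had 25 at least 8-fold above dry seed. Leaving out 1 array at a time gave 58 to 276 members, 8 to 52 at least 8-fold above dry seed and 15 to 53 above 8 h, with the highest count each time without 8 h replicate 2. Without dry replicates 1 and 2 the count over dry seed was 24 and 8, without 16 h replicates 2 and 3 it was 9 and 26, and over 8 h it was 46 without 8 h replicate 3 and 39 without 16 h replicate 3. Median bounds then ran from 3.73-fold to 6.84-fold over dry seed and from 5.21-fold to 8.92-fold over 8 h. By limma, 12 members were called over dry seed and 8 over 8 h with normexp, and 0 and 0 within slide 2, where no probe at all was called. Within slide 1, 1 member was called lower at 8 h than in dry seed, against 1.17% of all tested probes; that contrast has 1 array a stage, takes its spread from the 2 arrays at 16 h alone, and compares signals that were not detected. Same-numbered arrays had deviations correlated between -0.05 and 0.10, so the numbers did not pair the samples, and with the replicate block 74, 74 and 0 members were called in the 3 contrasts, as without it. The causes of these differences were not tested. Values under an array's detection limit, between -4.32 and -2.81 at the earlier stages, are bounds only.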

Other observations

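The probes of 2 members lay in adjoining positions of the array, at row 487 and columns 73 and 72. The first was GMFL01-09-J17-R_607, the second by bound, and the other was CO983367.1_575, rank 68, named here after its values were seen. The dimmer one stood at -1.58, -0.91 and -1.87 on 16 h replicates 1, 2 and 3, against 2.41, 3.46 and 1.95 for its bright neighbour. No other pair of the 74 members adjoined. Members were spread over rows 17 to 532 and columns 2 to 85.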
